A study of Mus musculus with 18 samples.

Results

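The Dlk1-Dio3 locus on mouse chromosome 12 is an imprinted domain that holds one of the densest collections of miRNA genes in mammals. The 10 mature miRNAs described here come from this locus. They lie outside both of its large groups, the miRNAs antisense to Rtl1 and the cluster from miR-379 to miR-410. Others there, such as miR-770-5p and both arms of miR-493, are not included. The 10 were chosen by name from the deposited tables and come from 6 hairpins. They are mmu-miR-770-3p, mmu-miR-673-5p, mmu-miR-673-3p, mmu-miR-341-5p, mmu-miR-341-3p, mmu-miR-1188-5p, mmu-miR-370-5p, mmu-miR-370-3p, mmu-miR-1247-5p and mmu-miR-1247-3p, written below without the prefix for mouse. All 10 were listed among 1204 miRNAs in 1 set of mouse embryonic fibroblast (MEF) libraries and among 1265 in the other, and 3 of them among 756 in B cells. For testing, a miRNA had to average 10 normalized counts or more within its set, and 9 of the 10 did so in each MEF set. MiR-1247-5p, at 0 to 6.75 normalized counts in every MEF library, did not.

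Small RNAs were sequenced from 18 libraries in 8 groups. In MEF the miR-17~92 cluster, an oncogenic miRNA polycistron activated by MYC, was overexpressed (OV, libraries OV1, OV2 and OV4), floxed and intact (fl/fl, FL3 to FL5) or deleted (d/d, DEL1 to DEL3), and 3 further groups of 1 library each held splenic B cells with the same 3 levels. Another MEF set used d/d cells carrying an empty plasmid (Empty, E1 to E3) or overexpressing miR-290~295 (libraries 1 to 3), a cluster best known from mouse embryonic stem cells. The Eu-myc strain, named for a Myc transgene under the immunoglobulin heavy chain enhancer, which is active in the B lineage, is given for every sample, controls included. Each sample is also labelled as having received spike-ins, and the cells were grown under standard conditions. The labels do not say how the overexpression or deletion was made, or whether replicates were separate cultures, so the p-values measure the spread between these libraries, which may be technical. Libraries of the miR-17~92 MEF set held 17191892 to 24920911 reads on listed miRNAs, those of the miR-290~295 set 43164128 to 58911475 and the B cell libraries 10203586 to 10612256. In reads per 1000000 reads on listed miRNAs (RPM), the summed miR-17~92 products lay between 20915 and 23082 in OV MEF, between 3382 and 5115 in fl/fl MEF, and between 74.6 and 99.8 after deletion, which is the order the labels give. The sums of 5 fibroblast and mesenchyme miRNAs, the markers of MEF, were 58899 to 67264, 58567 to 77189.9 and 70079.7 to 79636 RPM in the same order. There fl/fl overlapped both other groups, but every OV library lay below every d/d library in RPM.

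At this locus the long non-coding RNAs Meg3, Rian and Mirg are made from the maternal chromosome. The miRNAs on their strand are thought to be processed from them or from one long transcript that covers them. Mir1247 lies on the other strand. The protein genes Dlk1, a Notch-like ligand that restrains adipocyte differentiation, Rtl1, a retrotransposon-derived gene needed in the placenta, and Dio3, a deiodinase that inactivates thyroid hormone, are made from the paternal chromosome. A methylated region between Dlk1 and Meg3 controls which chromosome is used.

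Of the 6 hairpins 5 lie from Meg3 to within Rian, and the other lies far beyond, near Dio3 (GRCm38 coordinates, chromosome 12). Mir770 (109563692 to 109563785, plus strand) lies within Meg3, in an exon of 1 of its 11 annotated transcripts. Mir673 (109571990 to 109572080, plus strand) starts 264 bases after the annotated end of Meg3 and has no annotated host gene. Mir341 (109611500 to 109611595), Mir1188 (109611822 to 109611941) and Mir370 (109618258 to 109618336) lie on the plus strand within Rian, and none of its 20 transcripts has an exon there. Mir1247 (110278048 to 110278129, minus strand) lies 659711 bases after Mir370, in Dio3os, the non-coding RNA divergent from Dio3, in an exon of 1 of its 4 transcripts. Thus only 3 of the 6 hairpins are Rian miRNAs and 1 is distal, whereas miR-770 and miR-673 belong to the Meg3 end.

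The seed is the main part of a miRNA that pairs with target mRNAs, so members with a common seed could share binding sites. The mature sequences are shown in the order of the hairpins above (RefSeq, GRCm38.p6, 5′ to 3′, seed of bases 2 to 8 in capitals).
miR-770-3p: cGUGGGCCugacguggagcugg
miR-673-5p: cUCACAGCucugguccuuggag
miR-673-3p: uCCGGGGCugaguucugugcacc
miR-341-5p: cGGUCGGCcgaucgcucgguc
miR-341-3p: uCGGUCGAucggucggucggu
miR-1188-5p: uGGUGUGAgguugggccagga
miR-370-5p: cAGGUCACgucucugcaguu
miR-370-3p: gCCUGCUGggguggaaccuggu
miR-1247-5p: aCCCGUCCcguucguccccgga
miR-1247-3p: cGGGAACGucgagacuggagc
No seed was shared among the 10. This does not exclude a common target mRNA with separate sites, and no targets were examined. Outside them, miR-370-5p has the seed of miR-1193-3p, a member of the miR-379 to miR-410 cluster, and miR-673-5p has that of miR-6985-3p. The members were rich in G and C, with a median of 66.7% against 50.0% for the 553 of 662 tested miRNAs that have a sequence.

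MiR-370-3p was by far the most abundant of them. It is best known from human liver cells, where it has been reported to repress CPT1A, an enzyme of fatty acid oxidation. It read 4172, 5395 and 2684 normalized counts in OV1, OV2 and OV4, then 8623, 6703 and 7866 in FL3 to FL5, and 41339, 41359 and 53607 in DEL1 to DEL3. Its 3 groups did not overlap, with OV lowest and d/d highest. It made up 69.6% ± 5.0 of the summed counts of the 10 miRNAs in OV MEF, 71.2% ± 0.911 in fl/fl MEF and 67.7% ± 1.5 after deletion (SD, n = 3 each). The sums themselves were 5955 ± 2204 with overexpression, 10841 ± 1226 in fl/fl cells and 66959 ± 8902 with deletion. As a share of all reads the 10 miRNAs took 189 to 397 RPM with overexpression, 476 to 629 in fl/fl cells and 3415 to 4063 with deletion.

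**Figure D1:**
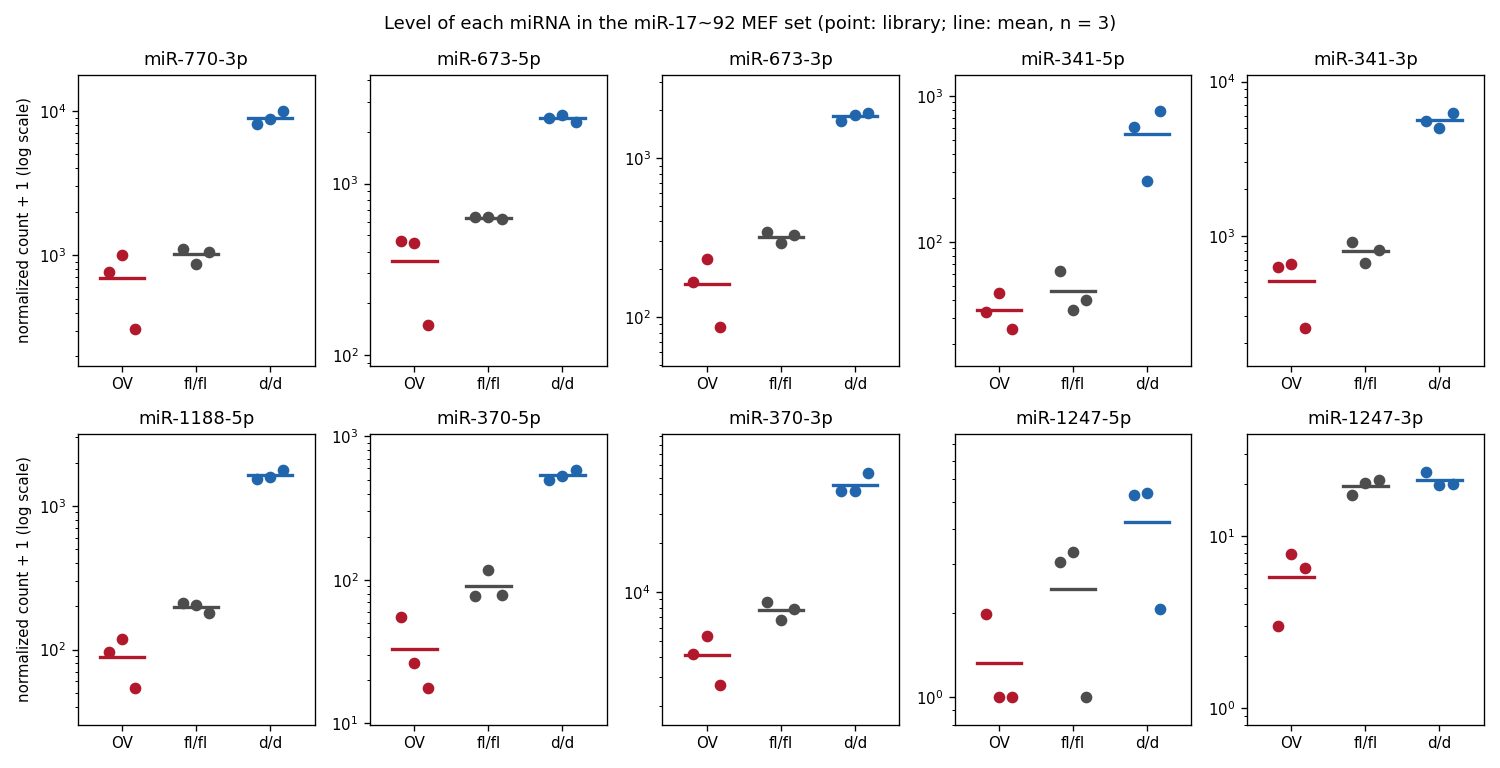
Normalized count + 1 (log scale, its range differing by panel) of each of the 10 miRNAs in the 9 MEF libraries with OV, fl/fl or d/d miR-17~92; points are libraries and lines are means of 3. In 8 of the 9 tested miRNAs every d/d library lies above every other library, while miR-1247-3p sits at 16.4 to 22.7 in both fl/fl and d/d.

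Deletion of miR-17~92 went with higher levels of nearly all of them. Against fl/fl, 8 of the 9 tested miRNAs rose in d/d MEF and none fell, beside 30.7% of all 662 tested miRNAs that rose, 27.6% that fell and 58.3% called in either direction (limma, Benjamini-Hochberg adjusted p under 0.05). All 8 were free of overlap between the groups, as were 34.9% of all tested miRNAs in the upward direction. The rises ran from 3.80-fold to 11.2-fold, and the median of the 9 log2 differences was 2.59 against 0.02 over all tested miRNAs.

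At the Meg3 end, miR-770-3p rose from 1104, 873 and 1059 normalized counts in FL3 to FL5 to 8159.5, 8736 and 9984 in DEL1 to DEL3. Every d/d library was far above every fl/fl library (log2 3.15 ± 0.35 SE, limma adjusted p = 3.42e-05). MiR-673-5p had the smallest rise of the 8, from 630.3 ± 10.1 to 2402 ± 105 (SD, n = 3; log2 1.93 ± 0.35, limma adjusted p = 0.000932). Its partner arm miR-673-3p rose from 321 ± 25.2 to 1831 ± 96.2 (log2 2.51 ± 0.29, limma adjusted p = 4.22e-05).

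Among the Rian hairpins, miR-341-5p had the largest rise, from 62.4, 33.2 and 39.2 in FL3 to FL5 to 606, 259 and 780.3 in DEL1 to DEL3. DEL2 was well below the other d/d libraries but above every fl/fl library (log2 3.49 ± 0.40, limma adjusted p = 4.07e-05). MiR-341-3p, the major arm, rose from 795 ± 120.3 to 5594 ± 657 (log2 2.82 ± 0.32, limma adjusted p = 3.42e-05). MiR-1188-5p, from the hairpin next to miR-341, rose from 197 ± 16.1 to 1628 ± 135 (log2 3.04 ± 0.25, limma adjusted p = 6.66e-06). Both arms of miR-370 rose by a similar amount, the 3p arm 5.86-fold (log2 2.55 ± 0.23, limma adjusted p = 1.00e-05) and the 5p arm 6.03-fold (log2 2.59 ± 0.36, limma adjusted p = 0.000131).

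MiR-1247-3p, from the Dio3 end, was the exception. It read 16.4, 19.5 and 20.1 normalized counts in FL3 to FL5 and 22.7, 18.9 and 19.1 in DEL1 to DEL3, from 16 to 32 reads a library. The groups overlapped, and the difference was 0.11 ± 0.38 on the log2 scale (limma adjusted p = 0.812), turning to −0.30 in the spike-in scaled table and −0.17 with library medians re-centred. The log2 ratio of miR-370-3p to miR-1247-3p within each library, which needs no scaling, was 8.62 ± 0.308 in fl/fl and 11.1 ± 0.308 in d/d. The difference of 2.44 came without overlap, with a two-sided exact permutation p = 0.1, the smallest that 3 libraries against 3 can give, and p = 0.133 after Benjamini-Hochberg adjustment over the 4 comparisons of this ratio. The same exact and adjusted p came with differences of −1.53 in OV against d/d and 1.16 in miR-290~295 against Empty, also without overlap. In OV against fl/fl the ratio differed by 0.90, with overlap (exact permutation p = 0.2). That ratio was chosen after the values were seen.

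Overexpression of miR-17~92 went with lower levels, by smaller amounts. Against fl/fl, 5 of the 9 tested miRNAs fell in OV MEF and none rose, beside 15.7% of all tested miRNAs that fell, 15.6% that rose and 31.3% called in either direction. The 9 log2 differences were all negative, from −0.42 to −1.87 with a median of −1.01, against −0.07 over all tested miRNAs. In 7 of the 9 the groups did not overlap, as in 24.2% of all tested miRNAs in the downward direction.

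MiR-1247-3p fell most, from the fl/fl values above to 1.98, 6.87 and 5.49 in OV1, OV2 and OV4. Those values stand for 2 to 6 reads a library, all below the 16 to 18 reads in fl/fl (log2 −1.87 ± 0.38, limma adjusted p = 0.00503). MiR-370-5p fell from 75.7, 117 and 77.2 in FL3 to FL5 to 53.6, 25.2 and 16.5 in OV (log2 −1.61 ± 0.36, limma adjusted p = 0.00773). MiR-1188-5p fell from 197 ± 16.1 to 88.2 ± 32.6 (log2 −1.22 ± 0.25, limma adjusted p = 0.0053).

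MiR-673-3p fell from 321 ± 25.2 to 161 ± 72.9 (log2 −1.10 ± 0.29, limma adjusted p = 0.0172), a call lost without FL3 (adjusted p = 0.0555) or FL5 (0.0593). MiR-370-3p was 1.96-fold lower in OV (log2 −0.97 ± 0.23, limma adjusted p = 0.0104). The other 4 did not pass, with log2 differences of −1.01 ± 0.35 for miR-673-5p, −0.75 ± 0.32 for miR-341-3p, −0.71 ± 0.35 for miR-770-3p and −0.42 ± 0.40 for miR-341-5p (limma adjusted p = 0.0539, 0.0912, 0.141 and 0.439).

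One OV library carried much of the size of these differences. OV4 was the lowest OV library for 8 of the 9 miRNAs, all but miR-1247-3p, whereas it was the lowest for 36.6% of all tested miRNAs. For miR-673-5p the OV libraries read 461, 447 and 148, and for miR-770-3p they read 769, 1001 and 304, with OV4 last. Without OV4 the count called was 6 of 9, all lower, because miR-673-5p then passed with a smaller difference and a smaller spread (log2 −0.47, limma adjusted p = 0.0111). Over all tested miRNAs 204 were then called, 105 of them lower, beside 207 of 662 with OV4 kept. MiR-673-3p moved to −0.71 (adjusted p = 0.00846), miR-341-3p to −0.31 (0.162) and miR-770-3p to −0.20 (0.394), while miR-370-3p moved to −0.70 and kept its call (0.00916).

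**Figure D2:**
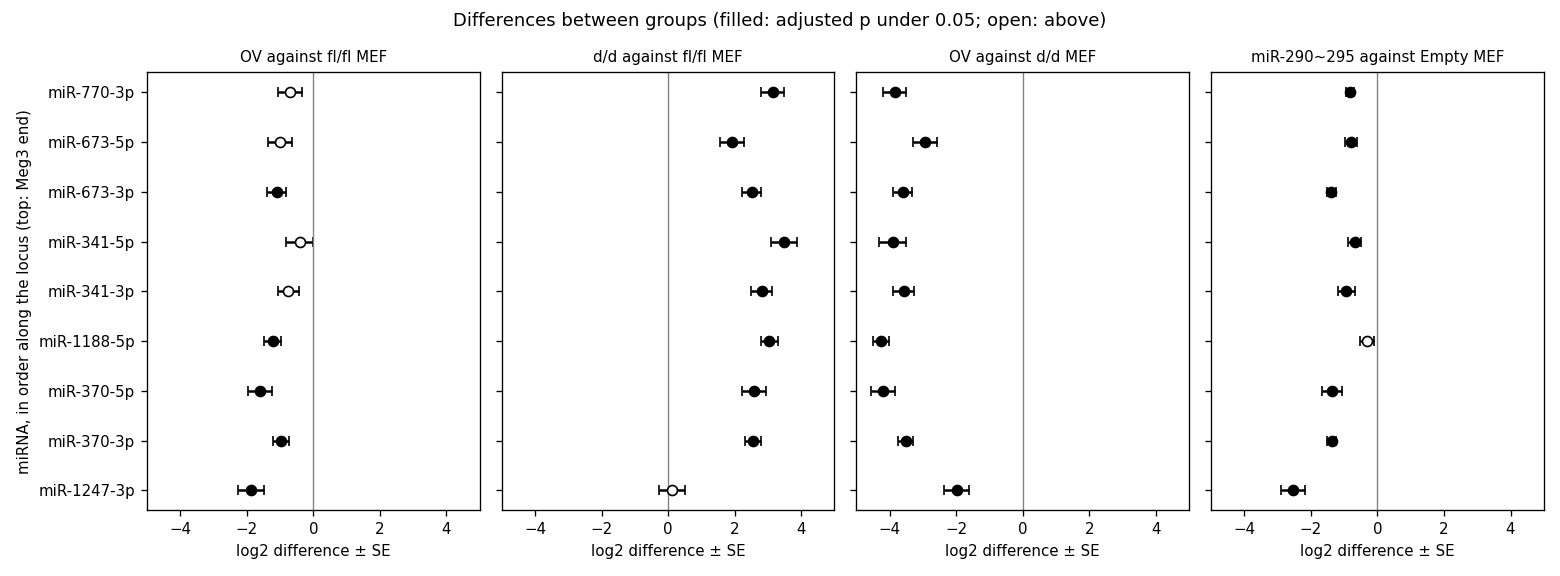
Log2 difference ± SE from limma for the 9 tested miRNAs, ordered along the locus from the Meg3 end (top), in the 4 MEF comparisons; filled points have an adjusted p under 0.05. In d/d against fl/fl 8 points lie between 1.93 and 3.49 and miR-1247-3p lies at 0.11, and in the other comparisons all points are below 0.

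The OV and d/d libraries, set against each other, stood furthest apart, and this comparison shares its libraries with both of the others. All 9 tested miRNAs were lower in OV than in d/d, beside 25.7% of all tested miRNAs that were lower, 26.7% that were higher and 52.4% called in either direction. None of the 9 had overlapping groups, as was so for 29.3% of all tested miRNAs in the downward direction. MiR-1188-5p was 19.2-fold lower in OV (log2 −4.26 ± 0.25, limma adjusted p = 4.40e-07) and miR-370-3p was 11.5-fold lower (log2 −3.52 ± 0.23, limma adjusted p = 7.41e-07). MiR-1247-3p had the smallest difference, at 3.97-fold (log2 −1.99 ± 0.38, limma adjusted p = 0.00122). By their means all 9 stood in the order d/d, fl/fl, OV. In 8 of them d/d was clear of fl/fl, whereas for miR-1247-3p these neighbours did not differ beyond their spread. The step from fl/fl to OV passed the test in 5 of the 9. The fibroblast and mesenchyme sum was also lower in OV than in d/d in RPM, without overlap. In normalized counts it overlapped, at 1112358 to 1341878 in OV and 1268609 to 1514021 in d/d. Its part in this comparison was not tested.

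Markers of other cell types also differed between these groups. Muscle and epithelial miRNAs were highest in fl/fl and lowest in d/d, with no overlap. The sum of the 2 listed muscle miRNAs lay between 1315 and 1596 RPM in OV, 1775 and 1884 in fl/fl, and 1083 and 1189 in d/d. That of the 5 epithelial miRNAs lay between 8.15 and 10.5, 13.7 and 14.5, and 3.57 and 5.89. The sum of the 3 listed neural miRNAs was 539 to 612 RPM in OV, below 704 to 826 in fl/fl and 697 to 803 in d/d, which overlapped. That of the 4 listed haematopoietic miRNAs was 219 to 333 in d/d, below 405 to 436 in fl/fl, and OV, at 306 to 529, overlapped both. Their part in the results was not tested. In such bulk libraries fewer cells of a type and less RNA per cell cannot be told apart.

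In d/d cells that overexpressed miR-290~295 the members were lower than with the empty plasmid. Of the 9 tested miRNAs 8 fell and none rose, beside 22.3% of all 840 tested miRNAs that fell, 16.7% that rose and 38.9% called in either direction. All 8 were free of overlap, as were 26.1% of all tested miRNAs in the downward direction. The median of the 9 log2 differences was −0.93, against 0.02 over all tested miRNAs. The summed counts of the 10 miRNAs were 212704 ± 18000.2 in Empty and 91811 ± 2911 with miR-290~295 (SD, n = 3 each), and their shares of all reads were 3936 to 4804 and 1869 to 2007 RPM.

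**Figure D3:**
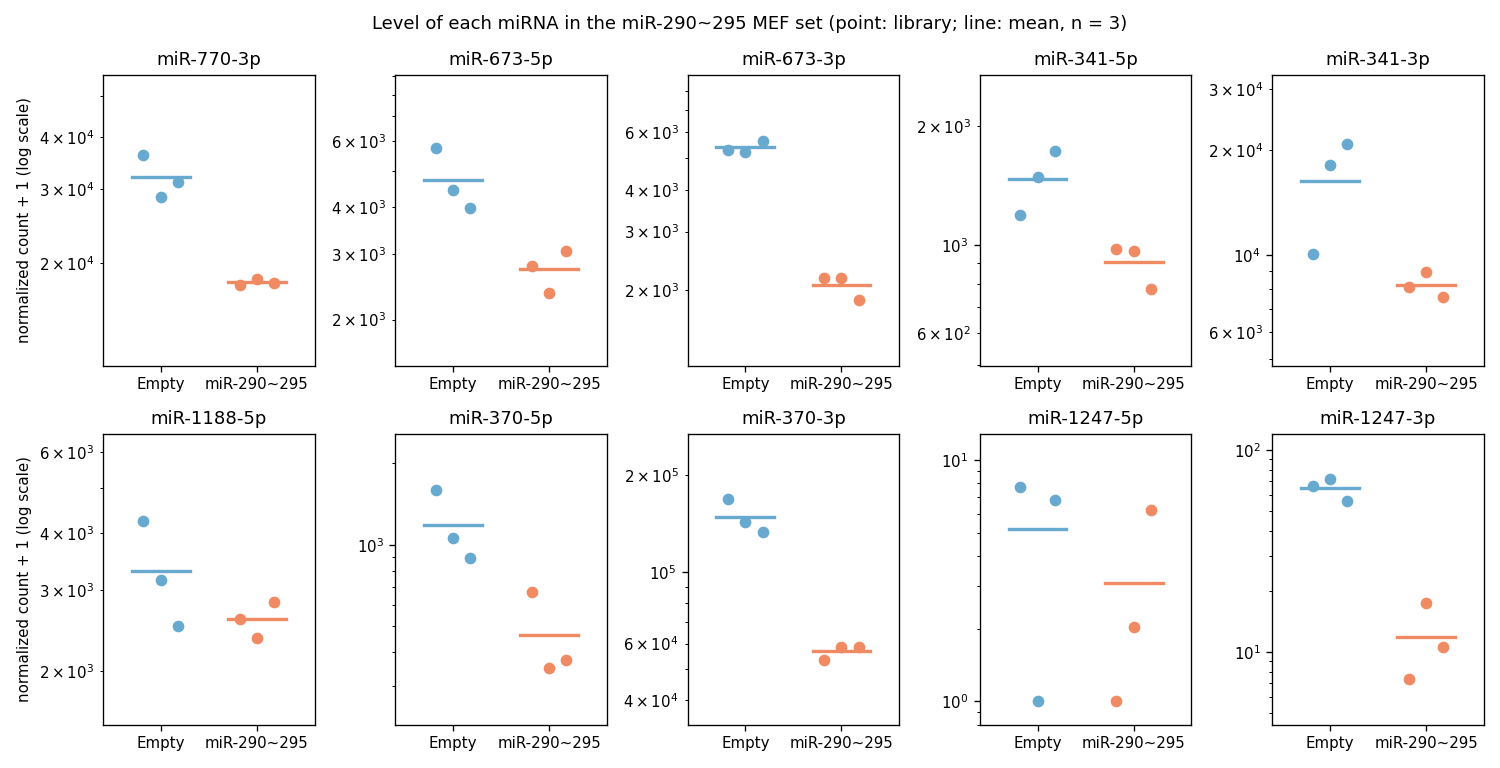
Normalized count + 1 (log scale, its range differing by panel) of each of the 10 miRNAs in the 6 d/d MEF libraries with the empty plasmid or miR-290~295; points are libraries and lines are means of 3. The groups are apart in all tested miRNAs except miR-1188-5p, where an Empty library at 2513 lies below 2 of the miR-290~295 libraries.

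MiR-1247-3p fell most here as well, from 65.2, 70.9 and 55.3 normalized counts in E1 to E3 to 6.36, 16.5 and 9.59 with miR-290~295. Every Empty library, at 57 or more reads, was above every miR-290~295 library, at 16 or fewer (log2 −2.54 ± 0.36, limma adjusted p = 0.000783). MiR-370-3p fell from 168757, 142987 and 132655 to 53537, 58573 and 58362. This was a 2.60-fold difference (log2 −1.38 ± 0.13, limma adjusted p = 7.69e-05), and its share of the summed members went from 69.5% ± 2.9 to 61.9% ± 1.2. MiR-370-5p fell by a like amount (log2 −1.37 ± 0.29, limma adjusted p = 0.00592).

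MiR-673-3p fell from 5392 ± 221 to 2065 ± 172 (log2 −1.39 ± 0.14, limma adjusted p = 9.28e-05). Its partner miR-673-5p fell less, from 4737 ± 925 to 2732 ± 349.5 (log2 −0.78 ± 0.18, limma adjusted p = 0.00806). MiR-770-3p fell from 36192, 28819.6 and 31176 in E1 to E3 to 17727, 18324 and 17996 (log2 −0.83 ± 0.13, limma adjusted p = 0.00144). The miR-290~295 libraries were tightly grouped and the Empty libraries all above them.

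MiR-341-3p read 10080.0, 18108 and 20892 in E1 to E3 and 8068, 8950.1 and 7567 with miR-290~295. E1 lay much closer to the miR-290~295 libraries than E2 and E3 did (log2 −0.93 ± 0.25, limma adjusted p = 0.0162). Leaving out E2 or the miR-290~295 library 1 or 3 ended this call (adjusted p = 0.0647, 0.0547 and 0.0681). MiR-341-5p fell from 1467 ± 266 to 906 ± 114 (log2 −0.69 ± 0.19, limma adjusted p = 0.0181), and leaving out E2, E3 or the miR-290~295 library 3 ended that call (adjusted p = 0.0651, 0.0552 and 0.0813). MiR-1188-5p was at 3305 ± 879 and 2597 ± 233 and did not pass (log2 −0.32 ± 0.20, limma adjusted p = 0.238), but it did in the spike-in scaled table (−0.80, adjusted p = 0.0144).

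Markers of MEF and of muscle moved with the members in this set. The sum of the 5 fibroblast and mesenchyme miRNAs lay between 60712 and 83343 RPM in Empty and between 38376 and 44628 with miR-290~295. That of the 3 muscle miRNAs lay between 1236 and 1721 and between 949.95 and 1109. The haematopoietic, epithelial and neural sums overlapped between the groups. The part of these lists in the fall of the members was not tested.

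All of these differences are relative to the scaling of the tables. With spike-in scaling the median over all tested miRNAs moved from 0.02 to −0.39 in d/d against fl/fl, from 0.02 to 0.60 in OV against d/d, from 0.02 to −0.46 in miR-290~295 against Empty and from −0.07 to 0.07 in OV against fl/fl. Of the 9 tested miRNAs, only miR-1247-3p in d/d against fl/fl changed direction between the tables. With spike-in scaling 8 members were called in d/d against fl/fl, 5 in OV against fl/fl, and 9 each in OV against d/d and in miR-290~295 against Empty. Over all tested miRNAs the calls in the members' direction were then 147 of 665, 44 of 665, 120 of 665 and 331 of 846.

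The medians of the neighbouring miRNA groups of the locus lay near those of the members. In d/d against fl/fl the median log2 difference was 2.33 over 14 tested Rtl1 antisense miRNAs and 2.71 over 62 tested miRNAs of the miR-379 to miR-410 cluster, of which 13 and 61 rose. In OV against fl/fl the medians were −0.97 and −0.90, with 8 and 28 that fell, or 3 and 5 with spike-in scaling. In miR-290~295 against Empty they were −1.10 over 17 and −1.08 over 66, with 13 and 57 that fell. None of these tested neighbours moved as little as miR-1247-3p in d/d against fl/fl, since the lowest was 1.93 for miR-337-3p in the antisense group and 1.55 for miR-668-3p in the cluster. MiR-1193-3p, which has the seed of miR-370-5p, differed by 2.43 ± 0.35 in d/d, −1.08 ± 0.35 in OV and −0.86 ± 0.15 with miR-290~295 (limma adjusted p = 0.000164, 0.0387 and 0.0023). MiR-493-3p and miR-493-5p, outside both groups and the members, differed by 2.63 and 2.84 in d/d (limma adjusted p = 0.000268 and 7.92e-05). Their differences were −1.16 and −0.77 in OV (0.0504 and 0.121) and −0.79 and −1.02 with miR-290~295 (0.0023 and 0.000919). MiR-770-5p differed by 3.30 in d/d (limma adjusted p = 9.11e-05), −0.86 in OV (0.141) and −0.30 with miR-290~295 (0.226).

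**Figure D4:**
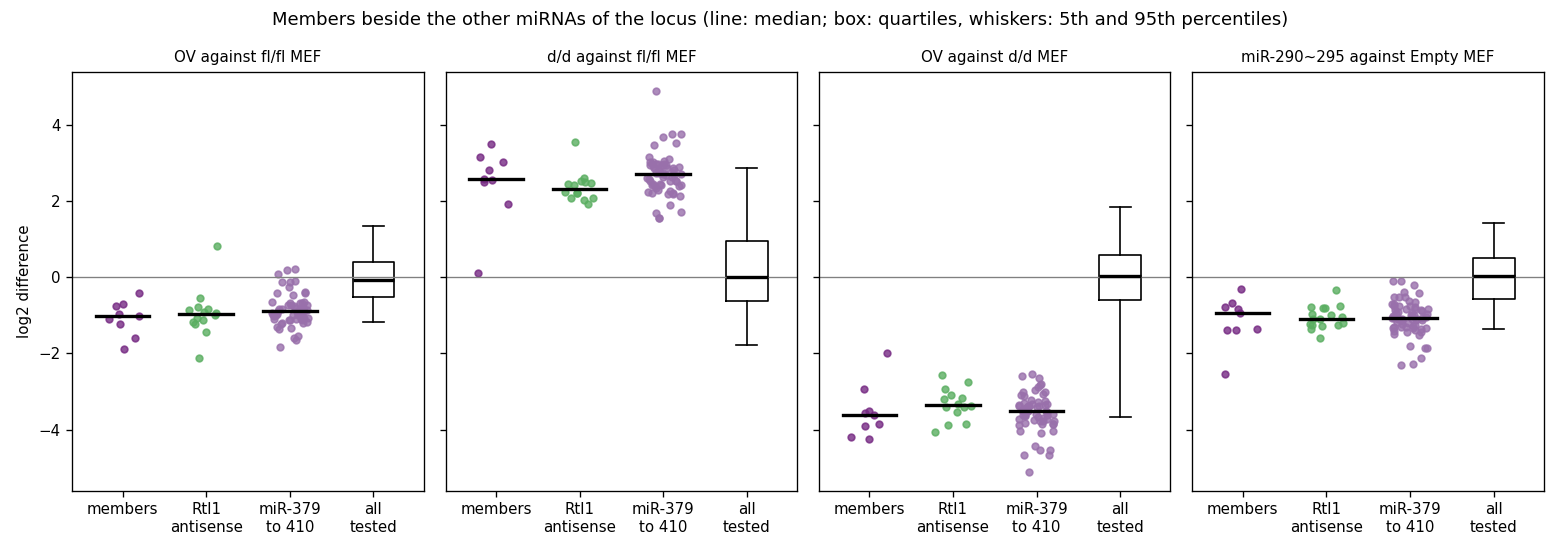
Log2 differences of the described miRNAs (members), the Rtl1 antisense group, the miR-379 to miR-410 cluster and all tested miRNAs in the 4 MEF comparisons; points are miRNAs, thick lines medians, and the box and whiskers give the quartiles and the 5th and 95th percentiles over all tested miRNAs. The 3 locus groups share a level in each panel, at medians of 2.33 to 2.71 in d/d against fl/fl, with miR-1247-3p alone near 0 there.

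Profiles over libraries were compared by the root-mean-square distance between log2 values centred on each miRNA's mean, over the 9 libraries of the miR-17~92 set. The closest miRNAs to miR-370-3p outside the members were miR-541-5p (distance 0.117), miR-381-3p (0.127) and miR-434-5p (0.127), all from the locus, against a median distance of 1.57 over 653 miRNAs. Among the members, miR-673-3p was at 0.144, miR-341-3p at 0.201 and miR-1247-3p at 1.11. The closest to miR-1247-3p were miR-212-5p (0.285) and miR-132-5p (0.488) on chromosome 11 and miR-182-5p (0.489) on chromosome 6, none of the locus. The median distance to miR-1247-3p was 1.16 over the same 653 miRNAs. Over the 6 libraries of the other set, miR-134-5p (0.121), miR-455-3p on chromosome 4 (0.143) and miR-127-3p (0.149) were closest to miR-370-3p, whereas miR-135a-2-3p (0.112), miR-17-5p (0.159) and miR-146a-5p (0.323) were closest to miR-1247-3p. The median distances in that set, over 831 miRNAs, were 0.774 to miR-370-3p and 1.37 to miR-1247-3p. MiR-17-5p is a product of the deleted cluster. In that set the 6 listed miR-17~92 products summed to 12.8 to 20.0 RPM in Empty and 2.75 to 3.51 with miR-290~295. The part of this difference was not tested.

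Each hairpin yields a 5p and a 3p arm, and their ratio within a library does not depend on scaling. MiR-770, miR-341 and miR-370 gave mostly the 3p arm, with 5p shares in fl/fl MEF of 6.14% ± 0.537, 5.26% ± 1.0 and 1.19% ± 0.46 of the reads of both arms (SD, n = 3). MiR-1188 gave almost only the 5p arm, at 98.1% ± 0.793. MiR-673 was the one hairpin with both arms in comparable amounts.

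Its 5p share was 65.1%, 68.4% and 65.5% in FL3 to FL5, 73.6%, 65.9% and 63.4% in OV1, OV2 and OV4, and 58.4%, 57.3% and 54.5% in DEL1 to DEL3. Every d/d library was below every other library of the set (differences in log2 arm ratio of −0.58 against fl/fl and 0.68 for OV against d/d). In the other set it was 52.1%, 46.1% and 41.4% in E1 to E3 and 56.2%, 52.2% and 62.1% with miR-290~295. The lowest miR-290~295 library barely cleared the highest Empty library (difference 0.60). Each of these had a two-sided exact permutation p = 0.1, the smallest possible, and p = 0.425 after Benjamini-Hochberg adjustment over 17 tests of arm ratios. The miR-770 share was also free of overlap in that set, at 4.12% ± 0.183 in Empty and 5.85% ± 0.889 with miR-290~295 (difference 0.52, the same exact p), and the other 13 tests were of overlapping groups.

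**Figure D5:**
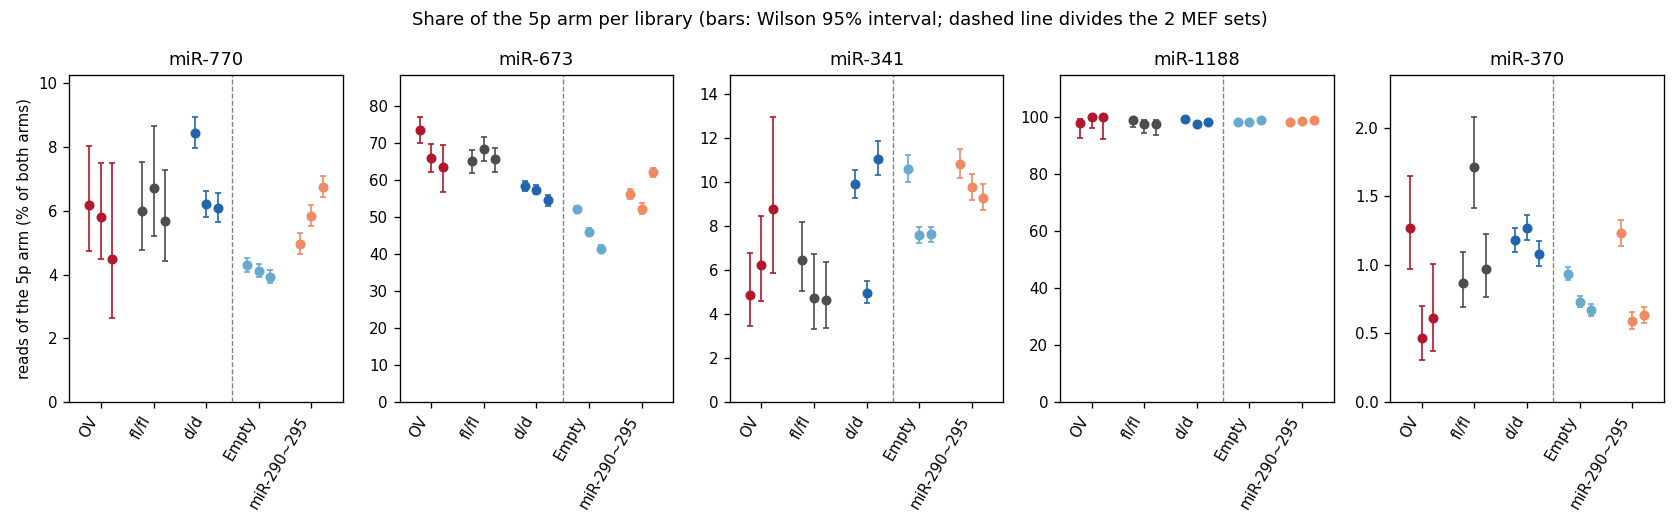
Share of the 5p arm among the reads of both arms of each hairpin, per library, with Wilson 95% intervals that cover counting error only; the dashed line divides the 2 MEF sets. For miR-673 the d/d libraries lie at 54.5% to 58.4%, below the fl/fl libraries at 65.1% to 68.4%.

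In B cells the miRNAs were near the limit of detection, and no test was possible with 1 library per group. Whether the B cell table was scaled with spike-ins is not stated, so the normalized counts and ratios below are relative to a scaling of unknown basis. Only miR-370-3p, miR-341-3p and miR-673-5p were listed, and together they took 6.62 RPM in the d/d library, 2.07 in the fl/fl one and 0.784 in OV. MiR-370-3p had 40 reads in the d/d library, 13 in the fl/fl one and 4 in the OV one, or 31.8, 12.3 and 5.36 normalized counts (exact Poisson 95% intervals 22.7 to 43.2, 6.53 to 21.0 and 1.46 to 13.7, counting error only). The d/d interval is clear of the other pair, which overlap each other.

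The ratio of d/d to fl/fl for miR-370-3p was 2.59 (95% interval 1.36 to 5.28) and that of OV to fl/fl 0.437 (0.104 to 1.42). MiR-673-5p had 14, 2 and 1 reads in the same order, a d/d to fl/fl ratio of 5.90 (1.35 to 53.4). MiR-341-3p had 16, 7 and 3 reads, a ratio of 1.92 with an interval of 0.749 to 5.53 that includes no difference.

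Kept miRNAs averaged at least 10 over the 3 B cell libraries, d/d included, so some could pass through a high d/d value alone. Of the neighbours listed in B cells, 12 of 29 in the miR-379 to miR-410 cluster and 7 of 10 in the Rtl1 antisense group were kept. All 12 and all 7 were higher in the d/d than in the fl/fl B cell library, beside 229 of all 476 kept miRNAs. The filter favours that direction, so no conclusion is drawn from these counts. In the OV library 5 of the 12 and 1 of the 7 were higher than in fl/fl, beside 245 of the 476. The sum of 5 fibroblast and mesenchyme miRNAs was 8185 normalized counts in the d/d library, 2024 in the fl/fl one and 1937 in OV, so higher in d/d like the members and nearly level between the others. The 2 listed muscle miRNAs summed to 184, 55.6 and 32.2. The 5 listed haematopoietic miRNAs were almost level, at 151275, 146843 and 141882. Shares of reads are lowered for every other miRNA where miR-17~92 takes more of them, and its own sum was 3784, 125579 and 363005 RPM in the same order. The part of cells other than B cells in these few reads was not tested.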

How the data were processed

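The authors deposited signal values, that is normalized read counts per mature miRNA, each library's reads being divided by 1 size factor. The submitters' processing notes name DESeq2 with no version. The aligner, annotation and genome build are stated neither there nor in the labels or headers. All values were whole multiples of 1 step per library (100% within 0.0001), so whole reads were recovered for depths, intervals and count tests. Rlog columns, 33 in all per the file headers, were left out. The OV and fl/fl MEF columns were matched to their group only.

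Each MEF set has tables with and without spike-in scaling, and those without were used; the B cell set has 1 table, whose scaling is not stated. MiRNAs with a mean of at least 10 were tested with limma 3.58.1 (R 4.3.3, mean-variance trend, log2 of the normalized count + 1, which understates changes of low miRNAs), and p-values were Benjamini-Hochberg adjusted over all of them at 0.05. The 9 libraries of the miR-17~92 set shared 1 spread, so each SE and p-value there also holds the spread of the group not compared. Sets were normalized separately and were not compared by test. Arm ratios were compared by two-sided exact permutation. Alternatives were other pseudocounts, minimums and scalings, edgeR 4.0.16 and DESeq2 1.42.0 on recovered reads, fits of fewer groups, the replicate number as a block, and leaving out each library. The tests were checked on simulated counts with the same dispersion in every group. That check does not cover the wider spread of most members in OV. Replicates of a group differed far beyond counting noise, so each counts as 1. All 10 miRNAs are named, plus the 3 closest profiles to miR-370-3p and to miR-1247-3p in each MEF set, and some other miRNAs of the locus. Members and lists were chosen with earlier results of these data known.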

Additional observations from a re-analysis of the deposited data

How the results depend on the processing

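Of 617 recomputed log2 differences of the 9 tested miRNAs, 596 kept their direction and their side of the threshold, 8 lost a call, 11 gained one and 2 reversed, both for miR-1247-3p in d/d against fl/fl (−0.30 with spike-in scaling and −0.17 with medians re-centred). In OV against fl/fl, 8 members were called with medians re-centred, and 4 to 8 when 1 library was left out. For all miRNAs the number called ran from 124 (without FL5) to 236 there. MiR-673-5p was gained with a pseudocount of 5, medians re-centred, DESeq2 and without OV1, OV2 or OV4, and miR-770-3p and miR-341-3p with medians re-centred and without OV2. With 1 library left out, 8 members were called in d/d against fl/fl, 9 in OV against d/d, and 6 to 8 in miR-290~295 against Empty. With every library kept, 386 of 662, 347 of 662 and 327 of 840 tested miRNAs were called in these comparisons. Their totals over all miRNAs with a library left out are not given here. On recovered reads edgeR called 182 miRNAs (5 members) in OV against fl/fl and 391 (8) for d/d, 350 (9) between OV and d/d, and 327 (8) with miR-290~295; DESeq2 called 236 (6), 402 (8), 350 (9) and 348 (8) in that order.

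Scaling moved the balance of calls over all miRNAs. In OV against fl/fl 103 rose and 104 fell, or 112 and 44 with spike-in scaling and 83 and 153 re-centred. In d/d against fl/fl these were 203 and 183, or 147 and 283, and 162 and 245. In OV against d/d they were 177 and 170, or 333 and 120, and 208 and 142. In miR-290~295 against Empty they were 140 and 187, or 56 and 331, and 107 and 211.

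Arm ratios changed sign only where the difference was small. With a library left out, miR-370 ran from −0.15 to 0.34 in d/d against fl/fl (−0.014 with a pseudocount of 5) and from −0.33 to 0.20 in miR-290~295 against Empty, miR-770 from −0.013 to 0.24 in d/d against fl/fl, miR-673 from −0.11 to 0.23 in OV against fl/fl, and miR-1188 from −0.092 to 0.30 in miR-290~295 against Empty.

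Deviations of same-numbered Empty and miR-290~295 libraries from their group means had r = 0.28, 0.01 and −0.26. These lay within the −0.38 to 0.39 of differently numbered pairs. With 3 libraries per group this check cannot decide whether the numbers pair them. With the replicate block 298 miRNAs were called against 327, and 8 of the 9 members in both. No paired analysis was possible for the miR-17~92 set because its OV and fl/fl columns carry other numbers than the labels. Depth limits miR-1247-3p, at 2 to 6 reads in OV, and all B cell values.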
